A study of Mus musculus with 6 samples.

Results

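Txnip, the thioredoxin-interacting protein, and 9 enzymes and carriers that detoxify superoxide and peroxides were examined in cerebella of mice without L1cam and of wild type mice. The genes listed were Txnip, Txn1, Prdx1, Prdx2, Prdx3, Prdx5, Gpx1, Gpx4, Sod1 and Sod2. Every probe set of the array whose annotation gave 1 of these symbols and no other was taken, which left 11 probe sets of 8 genes out of 12422 probe sets. Both probe sets annotated to Prdx1 also carried the symbol of a Prdx1 pseudogene and were not used. No probe set with a symbol of its own was found for Prdx5, so those 2 genes are not described. Txnip had 2 probe sets, Prdx2 had 3 and the other 6 genes had 1 each. The genes were chosen by the measured genotype difference of Txnip at one of its probe sets, so the genotype differences of the 11 probe sets are given as descriptions with no test.

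The samples were 6 cerebella of mice of the strain 129S2/SvPasCrlf at postnatal day 11, each on 1 Affymetrix Murine Genome U74Av2 array. They came from 3 knockouts, labelled male and L1CAM knockout (-/Y), and 3 wild type siblings whose sex the labels do not give. L1cam, on the X chromosome, encodes an adhesion molecule of growing axons, and the labels do not say which part of the gene was altered. The authors' RMA values are on the log2 scale, so a difference of 1 is a doubling.

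Thioredoxin, made from Txn1, is a small protein that keeps the cysteines of other proteins reduced, and Txnip is an arrestin-like protein that binds thioredoxin and holds it inactive. Txnip transcription follows glucose supply through the factors MondoA and ChREBP. Superoxide is turned into hydrogen peroxide by the dismutases, Sod1 in the cytosol and Sod2 in mitochondria. Peroxiredoxins remove that peroxide with electrons from thioredoxin, and glutathione peroxidases with electrons from glutathione. In brain these systems work beside a high rate of respiration and membranes rich in unsaturated lipids.

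The sequence before the start of Txnip is shown because it carries the element through which that glucose response is known to act, a pair of E-box-like hexamers. RefSeq promoter windows of assembly GRCm38.p6, from 250 bases before to 50 bases after each start, were found for all 10 listed genes. The pair was searched on both strands as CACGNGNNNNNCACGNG, and in the Txnip window, at chr3:96557707-96558006 on the plus strand, it lay 85 to 69 bases before the start (capitals).
Txnip: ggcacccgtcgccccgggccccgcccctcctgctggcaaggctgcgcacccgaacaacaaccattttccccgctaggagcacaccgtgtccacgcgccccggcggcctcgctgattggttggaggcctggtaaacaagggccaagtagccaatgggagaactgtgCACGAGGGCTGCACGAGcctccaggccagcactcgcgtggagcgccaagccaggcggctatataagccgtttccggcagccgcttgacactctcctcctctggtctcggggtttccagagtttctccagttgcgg
Of 32851 promoter windows in the table, 16 held this pair (0.0487%), and Txnip was the only listed gene among them. The core of the antioxidant response element, to which Nrf2 binds, was searched on both strands as TGACNNNGC and occurred in 12.4% of all windows. Among the listed genes it was matched in Sod1, shown at chr16:90220685-90220735, and Prdx1, shown at chr4:116685445-116685495, both on the plus strand, with the match, on the opposite strand, in capitals.
Sod1: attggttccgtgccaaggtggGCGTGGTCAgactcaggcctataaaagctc
Prdx1: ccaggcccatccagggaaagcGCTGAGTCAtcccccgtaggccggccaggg
The CCAAT box occurred in 37.4% of all windows, and in those of Txnip, Gpx4, Sod1 and Sod2 among the listed genes, with a match on each strand in Txnip. A match describes these letters only, and no binding was measured here.

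Some facts of the arrays bear on all values below. L1cam read 8.25, 8.01 and 7.91 in the knockouts, against 8.79, 8.48 and 8.73 in wild type, and so lay lower in every knockout array (exact permutation test, 2-sided, p = 0.1, the smallest that 3 arrays against 3 allow). The array labelled knockout 1 stood apart from the others at some checks and not at others. Eif2s3y, a gene of the Y chromosome, read 7.11 in knockout 1, against 8.72 or more in the other knockouts and 8.59 to 8.84 in wild type, and Uty, also of the Y chromosome, read 6.67, against 7.32 or more in the other 5 arrays. Kdm5d, another Y-linked gene, read 7.22 in knockout 1 and 7.22 in wild type 2, and Xist, which marks an inactive X chromosome, was at 6.31 to 6.41 in every array. The gap between the 3' and 5' Gapdh controls was 0.67 in knockout 1, against at most 0.13 elsewhere. Values without knockout 1 are therefore given beside the list counts and most of the differences. Of 13 marker genes of cerebellar neurons, 11 lay above the median level of the array. In limma, no probe set of the 12422 passed an adjusted p of 0.05 (0%), and 631 had an unadjusted p under 0.05 (5.08%).

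The 2 Txnip probe sets gave different pictures. At probe set 160547_s_at, Txnip read 11.20, 11.45 and 11.15 in the knockouts, against 10.71, 10.95 and 10.82 in wild type. All 3 knockout arrays lay above all 3 wild type arrays, with 0.20 between the lowest knockout and the highest wild type array. The difference was 0.44 (SE 0.09, 95% interval 0.24 to 0.64), or 1.36-fold higher in the knockouts. The gene was picked for this value, so the interval, which makes no allowance for the picking, describes the precision of the difference and is no test. The difference ranked 5th from the top among 12422 probe sets, and since it chose the genes, nothing is read from that rank. Without knockout 1 the difference was 0.47, and over the settings tried it ran from 0.35 to 0.50.

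At probe set 160548_at, Txnip read 9.33, 9.54 and 9.28 in the knockouts, against 9.51, 9.35 and 9.54 in wild type. The groups overlapped, with the highest and the lowest reading both in knockouts. The difference was -0.078 (SE 0.084, 95% interval -0.27 to 0.11), and -0.051 without knockout 1, with a range of -0.16 to -0.025 over the 6 single omissions. Within the knockouts both probe sets put the arrays in 1 order, with knockout 2 highest and knockout 3 lowest, while wild type 2 was the highest wild type array at the first and the lowest at the second. The reading of 160547_s_at minus that of 160548_at was therefore 1.87, 1.91 and 1.88 in the knockouts, against 1.20, 1.61 and 1.29 in wild type. The suffix _s_ is the one the array maker gives to probe sets that can match more than 1 transcript, and where its probes lie in the transcript was not known here.

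**Figure D1:**
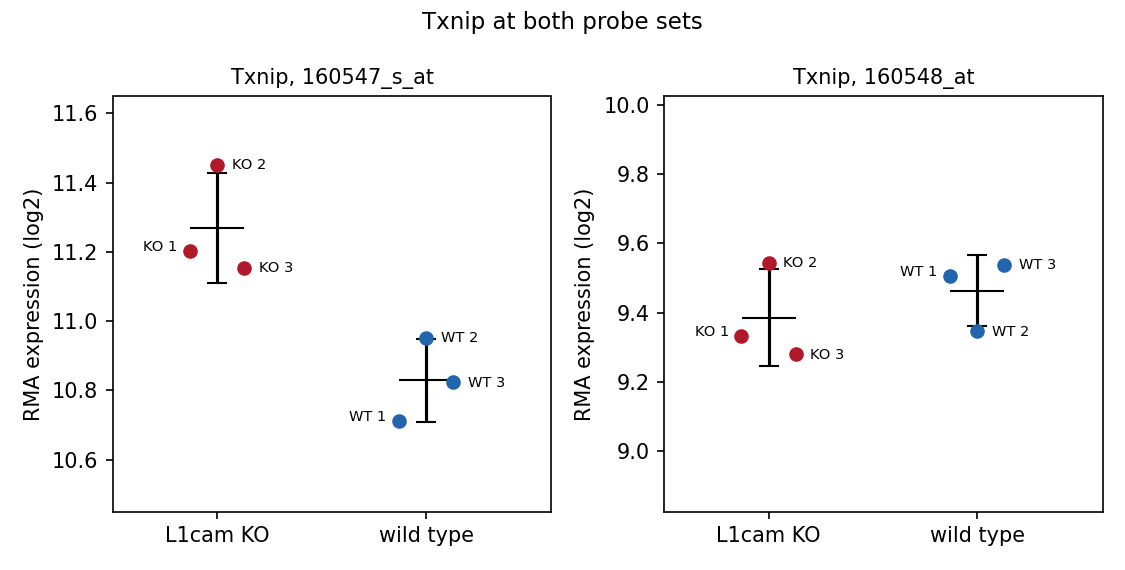
RMA log2 expression of Txnip at probe sets 160547_s_at (left) and 160548_at (right), 1 point per array, with the mean as a horizontal bar and the SD as the vertical bar (n = 3 per group). At the left, every knockout array lies above every wild type array (11.15 or more against 10.95 or less), while at the right the groups overlap. The axes have equal spans but different origins, since levels of different probe sets cannot be compared.

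Agreement between probe sets of 1 gene was tested over the 6 arrays for the 4 pairs that Txnip and Prdx2 allow. For the Txnip pair, Pearson's r was -0.17 (exact permutation p = 0.76, adjusted p = 0.89 over 4 pairs) and Spearman's rho was -0.029 (exact permutation p = 1, adjusted p = 1). Without knockout 2 and wild type 1, the arrays farthest from the median of 160547_s_at, r was -0.85. The knockout and wild type arrays form separate sets at 160547_s_at, so deviations from the genotype means were also compared, which gave r = 0.35. Agreement between the 2 Txnip probe sets was not detectable with 6 arrays.

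For each Txnip probe set the 5 genes with the most similar course over the 6 arrays were named. For 160547_s_at these were Pccb, a subunit of propionyl-CoA carboxylase (r = 0.99), the sorting nexin Snx2 (r = 0.98), the telomere protein Terf2ip (r = 0.97), the linker histone H1f2 (r = 0.96) and the translation termination factor Etf1 (r = 0.96). Their knockout means were also higher, by 0.14 to 0.28, and the genotype separation at that probe set takes part in the measure of likeness. For 160548_at they were 0610005C13Rik, Pklr, the pyruvate kinase of liver and red cells, Klra5, a receptor of natural killer cells, Prp2, a proline-rich protein, and Sprr2e, a cornified envelope protein of skin, all with r of 0.996 or more. The median r over all probe sets was -0.11 for 160547_s_at and 0.23 for 160548_at. These are descriptions over 6 arrays that share scaling, and each gene was picked as the highest of many. The median deviation over all 12422 probe sets was -0.011, 0.012 and -0.028 in the knockouts, against 0.024, -0.0015 and 0.0080 in wild type. Probe set 160548_at deviated with the same sign in every array, by -0.092, 0.12 and -0.14, against 0.082, -0.079 and 0.11. A shared array effect was not tested.

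Txn1, the cytosolic thioredoxin that Txnip binds, read 12.52, 12.34 and 12.35 in the knockouts, against 12.38, 12.42 and 12.31 in wild type. Knockout 1 was the highest array and the other 5 lay within 0.11 of each other. The difference was 0.035 (SE 0.070, 95% interval -0.12 to 0.19), and -0.024 without knockout 1, with a highest value of 0.066 without knockout 2.

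Prdx2, a cytosolic peroxiredoxin that uses thioredoxin and is abundant in neurons and red cells, had 3 probe sets of very unequal level, at percentiles 99.2, 48.6 and 5.24 of mean level on the array. The bright one, 100331_g_at, read 13.66, 13.35 and 13.42 in the knockouts, against 13.39, 13.50 and 13.33 in wild type. Knockout 1 was again highest and the groups overlapped. Its difference was 0.071 (SE 0.087, 95% interval -0.12 to 0.26), -0.022 without knockout 1 and 0.13 without knockout 2. The middle one, 99608_at, read 8.90, 8.96 and 8.86 in the knockouts, against 8.85, 8.89 and 8.59 in wild type. The groups overlapped only through wild type 2, which lay above knockout 3 by 0.030, and wild type 3 was the lowest array. Its difference was 0.13 (SE 0.08, 95% interval -0.051 to 0.32), 0.14 without knockout 1 and 0.041 without wild type 3. After quantile normalization, median centring or cyclic loess its groups no longer overlapped, where the whole-array shares were 9.71%, 9.95% and 10%. The dim one, 100330_at, read between 6.03 and 6.15 in the knockouts and between 6.04 and 6.24 in wild type, with a difference of -0.028 (95% interval -0.18 to 0.13), -0.032 without knockout 1 and 0.031 without wild type 1. The 3 pairs of Prdx2 probe sets had r of -0.067, 0.40 and 0.40 over the 6 arrays, with exact permutation p of 0.89, 0.38 and 0.34 and adjusted p of 0.89, 0.76 and 0.76. Spearman's rho was -0.029, 0.31 and 0.43, with adjusted p = 1 by exact permutation for each. Without the 2 arrays farthest from the median of 1 probe set of the pair, r was 0.14, 0.91 and 0.49. That probe set was 100330_at for the first 2 pairs and 100331_g_at for the last.

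Prdx3, the peroxiredoxin of mitochondria, read 10.80, 10.64 and 10.76 in the knockouts, against 10.79, 10.80 and 10.73 in wild type. Knockout 2 was lowest and the other 5 arrays lay close together. The difference was -0.041 (SE 0.065, 95% interval -0.19 to 0.10), -0.074 without knockout 1 and 0.0068 without knockout 2.

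The 2 glutathione peroxidases each had an interval that held 0. Gpx1, a cytosolic selenoenzyme that reduces hydrogen peroxide, read 10.49, 10.50 and 10.41 in the knockouts, against 10.59, 10.37 and 10.42 in wild type. All 3 knockout values lay inside the wild type range. The difference was 0.0087 (SE 0.072, 95% interval -0.15 to 0.17), -0.0020 without knockout 1, 0.074 without wild type 1 and -0.036 without wild type 2. Gpx4, the selenoenzyme that reduces lipid peroxides within membranes, read 10.55, 10.37 and 10.65 in the knockouts, against 10.34, 10.55 and 10.46 in wild type. Knockout 3 was highest and wild type 1 lowest, and the groups overlapped. The difference was 0.076 (SE 0.085, 95% interval -0.11 to 0.26), 0.062 without knockout 1, 0.011 without knockout 3 and 0.15 without knockout 2.

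The 2 dismutases had opposite signs, each with an interval that held 0. Sod1, the copper and zinc enzyme, read 11.43, 11.10 and 11.18 in the knockouts, against 11.19, 11.26 and 10.79 in wild type. Knockout 1 was the highest and wild type 3 the lowest array, and Sod1 had the widest spread within groups of the 11 probe sets (SD 0.17 in the knockouts and 0.25 in wild type, n = 3 each). The difference was 0.15 (SE 0.12, 95% interval -0.12 to 0.43), 0.057 without knockout 1, 0.010 without wild type 3 and 0.24 without wild type 2. Sod2, the manganese enzyme, read 9.10, 8.96 and 9.11 in the knockouts, against 9.04, 9.31 and 9.09 in wild type. Wild type 2 stood above the other 5 arrays. The difference was -0.090 (SE 0.082, 95% interval -0.27 to 0.093), -0.11 without knockout 1 and -0.0089 without wild type 2.

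**Figure D2:**
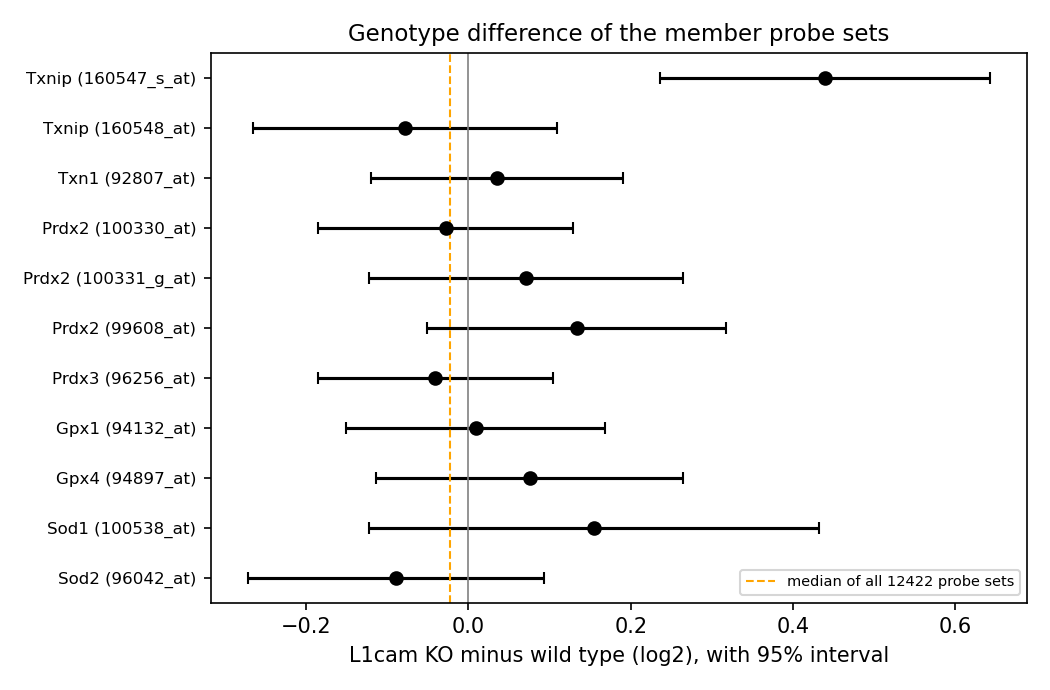
Knockout minus wild type on the log2 scale for the 11 probe sets of Txnip and the antioxidant enzymes, with the 95% interval from limma (n = 3 arrays per group). The dashed line is the median of all 12422 probe sets, -0.023. Txnip 160547_s_at, for which the genes were chosen, stands farthest right at 0.44, and the other 10 lie between -0.090 and 0.15.

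Over the 11 probe sets, 7 had a higher knockout mean and 4 a lower one, with a median difference of 0.035, where all 12422 probe sets had a median of -0.023 and 37.7% had a higher knockout mean. These counts rest on knockout 1, since without it 4 of the 11 were higher and the median was -0.022. The groups did not overlap for 1 of the 11 probe sets (9.09%), Txnip 160547_s_at, where the share over the whole array was 10.4%. By direction, 1 of the 11 lay higher in all knockout arrays, against 3.76% of the whole array, and 0 of the 11 lower, against 6.63%. Since the Txnip difference chose the genes, nothing is read from these shares. Leaving Txnip aside, the differences of the 9 enzyme and thioredoxin probe sets ran from -0.090 to 0.15, and their median absolute size was 0.071, against 0.054 over the whole array. In bulk tissue, more cells of a type and more RNA per cell cannot be told apart.

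Some of these genes varied together from array to array in an order that crossed the genotypes. Txn1, Prdx2 at 100331_g_at and Sod1 all had their highest reading in knockout 1, the next highest in wild type 2, the next lowest in knockout 2 and the lowest in wild type 3. Over the 6 arrays r was 0.98 between Txn1 and Prdx2, 0.87 between Txn1 and Sod1 and 0.84 between Prdx2 and Sod1, as a description. These pairs were picked from all pairs of the 11 probe sets. At the other Prdx2 probe sets, 100330_at and 99608_at, r was 0.13 and 0.45 with Txn1 and 0.27 and 0.77 with Sod1. Some pairs went in opposite directions, as Txnip 160548_at and Gpx4 did (r = -0.91). The hybridization controls, bacterial and phage transcripts added to each sample, lay 0.23 above their mean in knockout 1 and 0.082 above in wild type 2, and between -0.17 and -0.0095 in the other 4 arrays. Their part in the pattern was not tested. The median deviation of the 11 probe sets was 0.060 in knockout 1, -0.045 in knockout 2 and 0.0079 in knockout 3, against 0.0045, 0.046 and -0.068 in the 3 wild type arrays. Scaled to the hybridization controls, a setting chosen after the data were seen, 4 of the 11 probe sets had a higher knockout mean and the median was -0.038. Under that scaling Txnip 160547_s_at still had groups that did not overlap, at a share of 2.19% over the whole array. Since this probe set chose the genes, nothing is read from that share either.

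**Figure D3:**
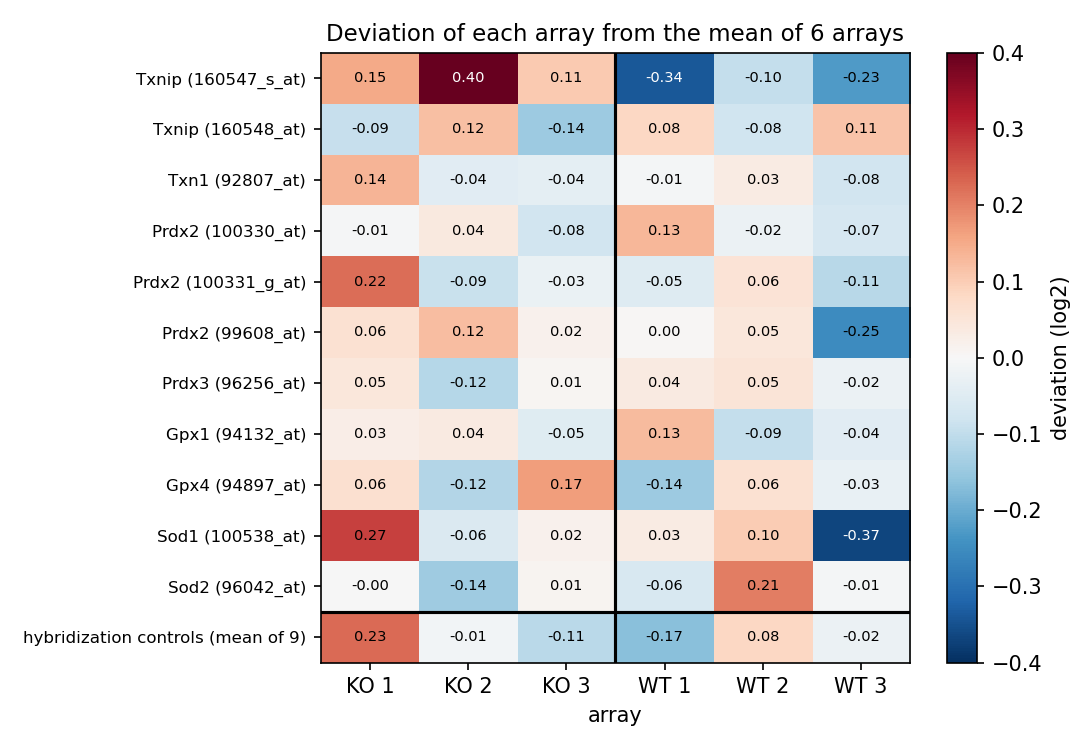
Deviation of each array from the mean of the 6 arrays, on the log2 scale, for the 11 probe sets and, in the bottom row, for the mean of 9 hybridization control probe sets. Knockout arrays are left of the vertical line. The top row changes sign at the line, while Txn1, Prdx2 (100331_g_at) and Sod1 peak in knockout 1, where the controls also lie highest (0.23).

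Red cells are rich in Prdx2, Gpx1 and Sod1 proteins, so blood markers are given beside them. Of 9 blood marker genes, 5 had a higher knockout mean, with a median difference of 0.053, and the mean level of the list ran from 10.37 to 10.48 in the knockouts, against 10.31 to 10.38 in wild type. Hba-a1, an alpha globin, averaged 14.67 in the knockouts and 14.39 in wild type and differed by 0.29 (SE 0.07), or 0.34 without knockout 1, where 6 of the 9 were higher. Hbb-b2 differed by 0.24 (SE 0.09) and Bpgm by 0.19 (SE 0.07), or 0.30 and 0.21 without knockout 1. The other way, 4 of the 9 had a lower knockout mean. The part of blood in the values of Prdx2, Gpx1 and Sod1 was not tested. The list mean of 5 choroid plexus markers, by contrast, was lowest in knockout 3 and wild type 1. It ran from 8.59 to 9.44 in the knockouts, against 8.67 to 9.36 in wild type. Of the 5, 1 was higher (median -0.020), and 0 without knockout 1 (median -0.11). That count was unstable, running from 0 to 5 over single omissions, with medians from -0.13 to 0.20. The differences of the 5 genes ran from -0.049 to 0.27. Aqp1 differed by -0.020 at its brighter probe set and -0.070 at the other. Folr1 differed by -0.049 at its brighter probe set, where wild type 1 was the highest wild type array (9.87), and by 0.055 at the other.

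The partners of Txnip were taken from lists of pathway genes, each gene being counted once, at its brightest probe set, and no gene of any list passed in limma over all probe sets. Of 8251 genes so measured, 10.7% had groups that did not overlap, and the median difference was -0.022. The genes named hold the 3 probe sets of their list with the smallest unadjusted p, so they lie at the edges of the lists, and where a gene has several probe sets the one counted in the list comes first. Among 9 regulators and partners of Txnip the knockout mean was higher for 4 and lower for 5 (median -0.018, and -0.043 without knockout 1). Klf6, a zinc finger factor, differed by -0.14 (SE 0.06), or -0.13 without knockout 1. Map3k5, the kinase ASK1 that thioredoxin holds inactive, differed by -0.13 (SE 0.06) with knockout 1 and without it. Apex1, a DNA repair enzyme that works with thioredoxin on transcription factors, differed by 0.16 (SE 0.08), which became 0.066 without knockout 1. Among arrestins, Arrb1 was the only gene measured beside Txnip, with differences of 0.0089 and 0.065 at its 2 probe sets, or 0.070 and 0.12 without knockout 1.

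Of 12 genes of the wider thioredoxin system 8 had a higher knockout mean (median 0.044), against 6 without knockout 1 (median -0.0012). Txnrd1, the reductase that recharges cytosolic thioredoxin, differed by 0.12 (SE 0.09), which became 0.024 without knockout 1. Mitochondrial Txn2 differed by 0.071 (SE 0.062) and Txndc5, a thioredoxin-fold protein of the endoplasmic reticulum, by 0.069 (SE 0.062), and these were 0.096 and 0.099 without knockout 1. Of the other peroxiredoxins, Prdx4, that of the endoplasmic reticulum, differed by 0.21 (SE 0.12), with 10.15 in knockout 1 against 9.78 or less in all other arrays, and by 0.065 without knockout 1. Srxn1, which repairs overoxidised peroxiredoxins, differed by -0.089 and 0.062 at its 2 probe sets. Of 6 glutathione peroxidases 2 were higher (median -0.026), and 1 without knockout 1 (median -0.044). Their count ran from 1 to 5 over single omissions, with medians from -0.060 to 0.026. Gpx2 differed by -0.092, Gpx7 by -0.060 and the secreted Gpx3 by -0.036, and without knockout 1 they were at -0.11, -0.13 and -0.061. Of 5 genes for dismutases, their copper chaperone and catalase 2 were higher with and without knockout 1 (medians -0.050 and -0.056). Ccs, the copper chaperone of Sod1, differed by -0.050, and its other 4 probe sets ran from -0.10 to 0.0020. Catalase, Cat, differed by -0.085 at its brighter probe set and 0.13 at the other, which became 0.042 without knockout 1.

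Genes of glutathione and of the Nrf2 response, the factor that drives most antioxidant enzymes, had list medians of -0.011 to 0.0035. Of 10 genes of glutathione synthesis and reduction 6 were higher (median 0.0035), and 7 without knockout 1 (median 0.015). Gclm, the regulatory subunit of the rate-limiting enzyme of glutathione synthesis and an Nrf2 target, differed by -0.17 (SE 0.06), or -0.15 without knockout 1, and lay lower in all 3 knockout arrays. The methylglyoxal enzyme Glo1 differed by 0.069 (SE 0.073) and by 0.12 (SE 0.07) at its other probe set, and the glutaredoxin Glrx by 0.081 (SE 0.059). Of 18 glutathione transferases 8 were higher (median -0.0067), and 9 without knockout 1 (median 0.00021). Gstm5 differed by 0.016 at its brightest probe set and by 0.035 to 0.12 at the other 3. Mgst3 differed by -0.061 at its bright probe set and -0.17 at its dim one, and Gstm6 by -0.016 and 0.10 in the same order. Of 10 regulators of the Nrf2 pathway 5 were higher (median -0.011), and 4 without knockout 1 (median -0.018). Nfe2l2, which encodes Nrf2, differed by -0.14 (SE 0.08), or -0.19 without knockout 1. Its partner Mafg differed by 0.015 and -0.10 at its 2 probe sets, or 0.059 and -0.091 without knockout 1, and its competitor Bach1 by -0.041 and -0.069. Of 20 Nrf2 target genes 11 were higher (median 0.00095), and 7 without knockout 1 (median -0.0066), with a range of 7 to 14 over the 6 single omissions. Idh1, a cytosolic source of NADPH, differed by 0.15 (SE 0.08), which became 0.087 without knockout 1.

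Selenium supply bears on Gpx1 and Gpx4, which carry selenocysteine. For 17 genes of selenoproteins and selenium handling the knockout mean was higher in 11 (median 0.046), and in 10 without knockout 1 (median 0.024). Sephs2, which makes the selenium donor for selenocysteine, differed by 0.22 (SE 0.09), or 0.25 without knockout 1, and was higher in all 3 knockout arrays. Selenoh differed by 0.19 (SE 0.11), which became 0.093 without knockout 1, and Selenok by 0.048 and 0.13 at its 2 probe sets, or 0.011 and 0.20 without knockout 1. Of 14 genes of other redox repair 6 were higher (median -0.016), and 5 without knockout 1 (median -0.023). The nucleotide pool enzyme Nudt1 differed by -0.10, the paraoxonase Pon3 by -0.091 and Park7 by 0.067, and without knockout 1 Pon3 was at -0.060 and Park7 at 0.040.

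**Figure D4:**
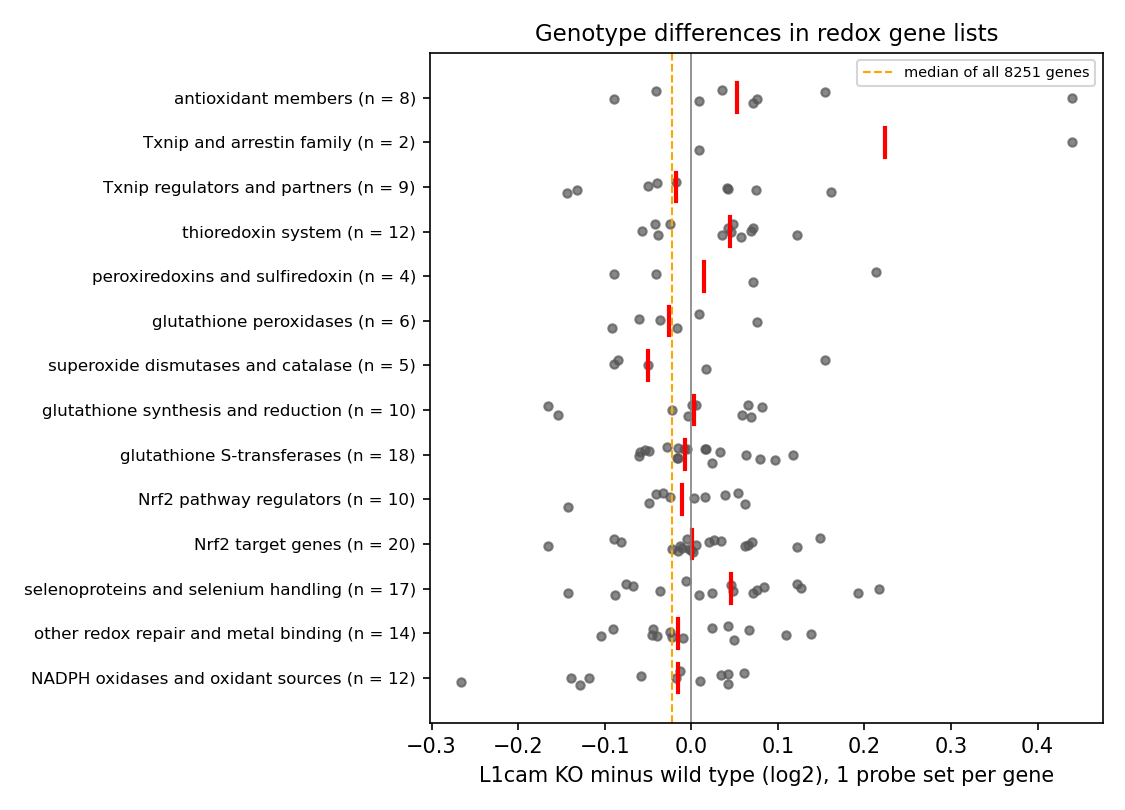
Knockout minus wild type on the log2 scale for the genes of 14 redox lists, 1 point per gene (the probe set with the highest mean level), with the median of each list as a red bar. The dashed line is the median of all 8251 genes, -0.022. Txnip, at 0.44, stands farthest to the right, and the list medians other than that of the arrestin list (2 genes) lie between -0.050 and 0.053.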

How the data were processed

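The deposited values are log2 expression values per probe set, which the authors made with RMA, per the submitters' processing notes. Neither version nor settings were given in the sources used. RMA scales arrays to each other, so an overall change in RNA per cell cannot be read. Scanner files were not used here. Of 12488 probe sets, 66 controls were set aside. Symbols came from the array's annotation (10833 probe sets with 1 symbol), and for 10817 of these the gene identifier was found in RefSeq GRCm38.p6.

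Genotype was fitted with limma 3.58.1 in R 4.3.3, 2-sided, with Benjamini-Hochberg adjustment over 12422 probe sets at 0.05. On simulated data with 200 planted changes the fit recovered 93% of 1.5-fold and 100% of 2-fold changes, with 12 false calls. Noise there was independent between probe sets, with variances drawn as limma had fitted them. These shares therefore need not hold for the real arrays. L1cam itself, 1.52-fold higher in wild type, had a limma adjusted p of 0.84. The genes, lists and tests were chosen with earlier results of these data known. From each of 19 other lists 3 probe sets were named, by smallest unadjusted p, and for each Txnip probe set the 5 genes with the highest r. Of 252 listed symbols 1 was not in RefSeq. Each array was taken as 1 mouse, after the series' design text. Arrays carry no read depth, and their number limits precision: the median 95% interval reached 0.158 log2 to either side. Alternatives covered scaling, a filter on dim probe sets, variance models, array weights, a replicate block and each array left out.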

Additional observations from a re-analysis of the deposited data

Results flagged for a closer look

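Control probe sets for the 3' and the 5' end of some abundant transcripts enter no comparison between genotypes, and the Gapdh pair was used above only to describe knockout 1. Their gap, 3' minus 5', was larger in a knockout array than in every wild type array in 5 cases. The Gapdh gap was 0.67 in knockout 1 and 0.13 in knockout 3, where the largest wild type gap was 0.12. The Actb gap was 1.09 in knockout 1 and 0.95 in knockout 3, where the largest wild type gap was 0.93. The gap of pyruvate carboxylase was 0.88 in knockout 1, where the largest wild type gap was 0.85. The remaining knockout gaps lay below the largest wild type gap of their control. They were 0.043 (Gapdh), 0.89 (Actb) and 0.48 (pyruvate carboxylase) in knockout 2, and 0.65 (pyruvate carboxylase) in knockout 3. Cases from 1 array are not independent of each other.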

How the results depend on the processing

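No probe set passed under any of the 15 other settings except without knockout 3, which gave 1 (Sox11, named after its values were seen), so the count ran from 0 to 1 over single omissions. No pairing by replicate number was seen, though 3 arrays per group cannot exclude it. Deviations of same-numbered arrays had r of 0.16, -0.32 and 0.17, and those of differently numbered arrays -0.40 to 0.24. With the replicate number as a block 0 probe sets passed and 7 of the 11 were higher. Of 132 recomputed differences of the 11 probe sets, 119 kept their sign. The 13 that turned were of Gpx1, Prdx2, Prdx3 and Txn1, none beyond -0.064 after turning. The count of higher knockout means was 4 after scaling to the hybridization controls and ran from 4 (without knockout 1) to 8 over single omissions, and the median was -0.038 and ran from -0.022 to 0.066. The count of groups that did not overlap was 2 after quantile normalization, median centring and cyclic loess. The whole-array shares were then 9.71%, 9.95% and 10%. With suffixed probe sets left out it was 0 of 9, beside a whole-array share of 10.4%. It was 1 to 3 over single omissions, where the whole-array share was 17.0% to 27.8%. Correlations turned sign as follows, the cause not tested. The Txnip pair had r = 0.10 with the hybridization controls, and -0.88 (without knockout 2) to 0.054 (without wild type 1) over single omissions. Prdx2 100330_at with 100331_g_at had 0.45 after quantile normalization, 0.015 after median centring, 0.33 after cyclic loess, 0.56 with the hybridization controls, and -0.32 to 0.20 over single omissions. The other Prdx2 pairs turned only without wild type 3, with ranges of -0.044 to 0.70 and -0.057 to 0.68.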

Other observations

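Sources of oxidants were measured beside the enzymes that remove them. Among 12 genes of NADPH oxidases and other oxidant sources the knockout mean was higher for 5 and lower for 7 with and without knockout 1 (medians -0.015 and -0.039), and 3 had groups that did not overlap (10.7% over all genes), each lower in the knockouts. These were Nos1, the neuronal nitric oxide synthase, which averaged 7.75 in the knockouts and 8.01 in wild type and differed by -0.27 (SE 0.09), Nos3, the endothelial synthase, at -0.14 (SE 0.06), and Rac2, a GTPase of the phagocyte oxidase, at -0.13 (SE 0.07). Without knockout 1 they were at -0.18, -0.15 and -0.16. None passed in limma.

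Markers of other cells were described in the same way, and none passed. Of 8 astrocyte and Bergmann glia genes 3 were higher (median -0.0084), and 5 without knockout 1 (median 0.025). The water channel Aqp4 differed by -0.37 at its brighter probe set, or -0.25 without knockout 1, and by -0.24 at the other, or -0.040. Gfap differed by 0.15 at its brighter probe set, which became -0.0040 without knockout 1, and by 0.26 at the other, or 0.20. Fabp7 differed by 0.17 (SE 0.08), or 0.094 without knockout 1. Of 10 microglial genes 4 were higher (median -0.021), and 2 without knockout 1 (median -0.025). Their count ran from 2 to 6 over single omissions, with medians from -0.052 to 0.021. C1qb differed by -0.11 at its brighter probe set and 0.19 at the other, and Cx3cr1 by -0.11. Of 12 genes of meninges and fibroblasts 8 were higher (median 0.060), and 7 without knockout 1 (median 0.051). Col3a1 differed by 0.14 at its brightest probe set, which became 0.063 without knockout 1, and by 0.21 and 0.17 at the others. Serpinh1 differed by 0.14 (SE 0.08), which became 0.065 without knockout 1. Of 13 cerebellar neuron genes 3 were higher with and without knockout 1 (medians -0.041 and -0.023). Their count ran from 3 to 6 over single omissions, with medians from -0.093 to -0.0016. En2 was at -0.18, Atoh1 at -0.13 and Pax6 at 0.17, or 0.10 without knockout 1.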
